A study of Mus musculus with 16 samples.

Results

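The 10 genes described here mark the germ line or the entry into meiosis. They are Stra8, Dazl, Ddx4, Sycp3, Rec8, Prdm1, Prdm14, Dnd1, Kit and Kitl, chosen by symbol as 10 of the 24221 genes and 13 of the 33701 RefSeq rows of the expression matrix. They were followed in embryoid bodies (EBs), floating aggregates in which embryonic stem (ES) cells differentiate, made from the R1 line of mouse ES cells. All EBs grew for 4 days without Lif, the cytokine that keeps ES cells undifferentiated. The day 0 group was taken when retinoic acid (RA) was added, and the day 4 group after 4 days in 2 µM RA. The growth time and the RA treatment cannot be told apart between these groups, because none of the samples analysed here are EBs kept without RA to day 4. Each day is represented by 2 RNA samples, each from its own repeat of the procedure, and each RNA sample was split over 4 vials. Mouse RNAs transcribed in vitro (IVT) were added as mix 1, 2 or 3, or left out (mix 4), which gave 16 strand-specific libraries depleted of ribosomal RNA. Every vial also received ERCC control RNAs. Their mix 1 went with IVT mixes 1 and 3, and their mix 2 with IVT mixes 2 and 4. The vials show technical spread only, so a day has n = 2.

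RA is the signal that leads germ cells of the embryonic ovary, and later of the testis, into meiosis. Stra8 is switched on by RA at that step, and Rec8 and Sycp3 encode parts of the chromosome axis that meiotic cells build. Before that, primordial germ cells (PGCs) are set aside in the early embryo by Prdm1 and Prdm14, survive with the help of Dnd1 and of the receptor Kit and its ligand Kitl, and later turn on Dazl and Ddx4. In ES cells many germ line genes are held down by DNA methylation and by the polycomb complex PRC1.6, which binds DNA through MGA with MAX and through E2F6. RA also drives differentiation of cells that are not germ cells, and Prdm1, Kit and Kitl are used in several of those cell types.

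The regulatory sequence before the start of 4 of these genes is shown because it holds, or lacks, the short motifs to which such regulators are known to bind. The sequences are the 250 bases upstream of the start in RefSeq on GRCm38.p6 (mm10), written 5′ to 3′ on the strand of the gene, and capitals mark 3 motifs searched on both strands. CACGTG is an E-box bound by MAX with a partner. AGGTCA is a half-site, only a part of the elements read by nuclear receptors such as those for RA. GCGGGA is the core of E2F sites, written TCCCGC where it lies on the opposite strand. Stra8 (chr6:34920698-34920947, plus strand) held AGGTCA 194 and 38 bases before the start. Sycp3 (chr10:88459337-88459586, plus strand) held CACGTG 64 and 43 bases, AGGTCA 213 bases and GCGGGA 147 bases before the start. Ddx4 (chr13:112652311-112652560, minus strand) held CACGTG 29 bases and GCGGGA 136 bases before the start. Rec8 (chr14:55617916-55618165, plus strand) held GCGGGA on the opposite strand, 38 bases before the start.
Stra8: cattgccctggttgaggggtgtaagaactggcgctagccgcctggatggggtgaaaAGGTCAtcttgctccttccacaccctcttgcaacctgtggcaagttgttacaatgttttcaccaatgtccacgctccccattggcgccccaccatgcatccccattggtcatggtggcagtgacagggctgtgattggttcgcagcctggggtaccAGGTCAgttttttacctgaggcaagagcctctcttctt
Sycp3: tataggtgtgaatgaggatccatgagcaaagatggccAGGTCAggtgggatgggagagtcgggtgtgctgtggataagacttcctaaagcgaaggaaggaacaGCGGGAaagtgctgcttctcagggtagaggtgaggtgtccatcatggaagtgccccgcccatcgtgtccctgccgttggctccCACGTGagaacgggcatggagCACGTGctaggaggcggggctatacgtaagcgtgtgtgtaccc
Ddx4: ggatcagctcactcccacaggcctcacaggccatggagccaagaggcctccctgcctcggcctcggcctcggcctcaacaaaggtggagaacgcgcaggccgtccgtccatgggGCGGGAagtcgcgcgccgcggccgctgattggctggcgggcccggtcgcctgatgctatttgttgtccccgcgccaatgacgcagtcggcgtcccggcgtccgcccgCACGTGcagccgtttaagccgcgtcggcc
Rec8: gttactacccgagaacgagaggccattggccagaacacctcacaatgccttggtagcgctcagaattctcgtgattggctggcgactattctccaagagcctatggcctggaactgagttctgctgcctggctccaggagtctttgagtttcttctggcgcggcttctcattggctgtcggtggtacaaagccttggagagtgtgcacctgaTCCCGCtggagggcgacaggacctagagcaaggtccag

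Sequences of 8 of the 10 genes were searched. Dnd1, on chromosome 18, was left out of the search, and no sequence was used for Prdm14. CACGTG occurred in 2 of them and in 6.02% of all 32851 promoters of this length, AGGTCA in 2 of them and in 14.0%, and GCGGGA in 5 of them and in 16.9%. Dazl and Prdm1 held none of these letters in this window, and Kit and Kitl held only GCGGGA. A match of letters describes the sequence and does not show binding. For Stra8 and Ddx4, no GENCODE transcript held the bases that follow the start in this table, so the window may not be that of the transcript measured. The windows of Stra8, Ddx4, Rec8, Prdm1 and Kitl lie wholly or in part within the span given below for the gene. These bases are therefore upstream only of the start used for the window.

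From day 0 to day 4, Stra8 and Dazl rose and Prdm14, Dnd1, Prdm1, Ddx4 and Kit fell. Levels are FPKM, fragments per kilobase of transcript scaled to the size of the library, summed over the RefSeq rows of a gene. Changes are log2(FPKM + 0.1) at day 4 minus day 0, from the limma fit over 20542 genes with 2 RNA samples a day, and a gene was called at a Benjamini-Hochberg adjusted p of at most 0.05. The 2 genes called higher and the 5 called lower stand against 16% of all genes called higher and 14.5% called lower, or 30.4% called in either direction. The median change was -1.44 for the 10 genes and -0.03 for all genes tested. For 9 of the 10 genes, all but Kitl, the 8 libraries of day 0 did not overlap the 8 of day 4, which held for 34.4% of all genes. With 2 samples a day an exact permutation test of a single gene cannot go below p = 0.333. Without day 4 RNA sample 1, or without day 4 RNA sample 2, 0 of the 10 genes and 0 of all genes passed the limma test, while 4941 and 4720 genes had an unadjusted p of at most 0.05. In these fits of 3 samples the changes kept their direction, and moved little for Prdm14 (-4.51 and -4.28) and Prdm1 (-2.19 and -2.17). The fits without vials, with GC correction and with the block were not repeated in this way.

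At day 0 Kitl had the highest mean level of the 10 (11.9 FPKM), followed by Dnd1 (7.50), Kit (6.10) and Prdm1 (5.16). The libraries of Dnd1 ranged from 1.95 to 12.3 FPKM and overlapped those of the other 3, and in RNA sample 2 its mean (4.22) was below those of Kit (5.54) and Prdm1 (5.16). Prdm14 (3.75), Rec8 (3.37), Sycp3 (3.25) and Ddx4 (2.90) came next, and their library ranges overlapped one another. Dazl (0.160) and Stra8 (listed at 0) stood lowest. At day 4 Kitl was again highest (18.4 FPKM), Rec8 was next (8.11), and Dnd1 (0.235) and Prdm14 (0.0827) were lowest. In between lay Kit (2.28), Stra8 (1.65), Prdm1 (1.06), Ddx4 (0.949), Sycp3 (0.920) and Dazl (0.573), and the library ranges of Prdm1, Ddx4 and Sycp3 overlapped.

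**Figure D1:**
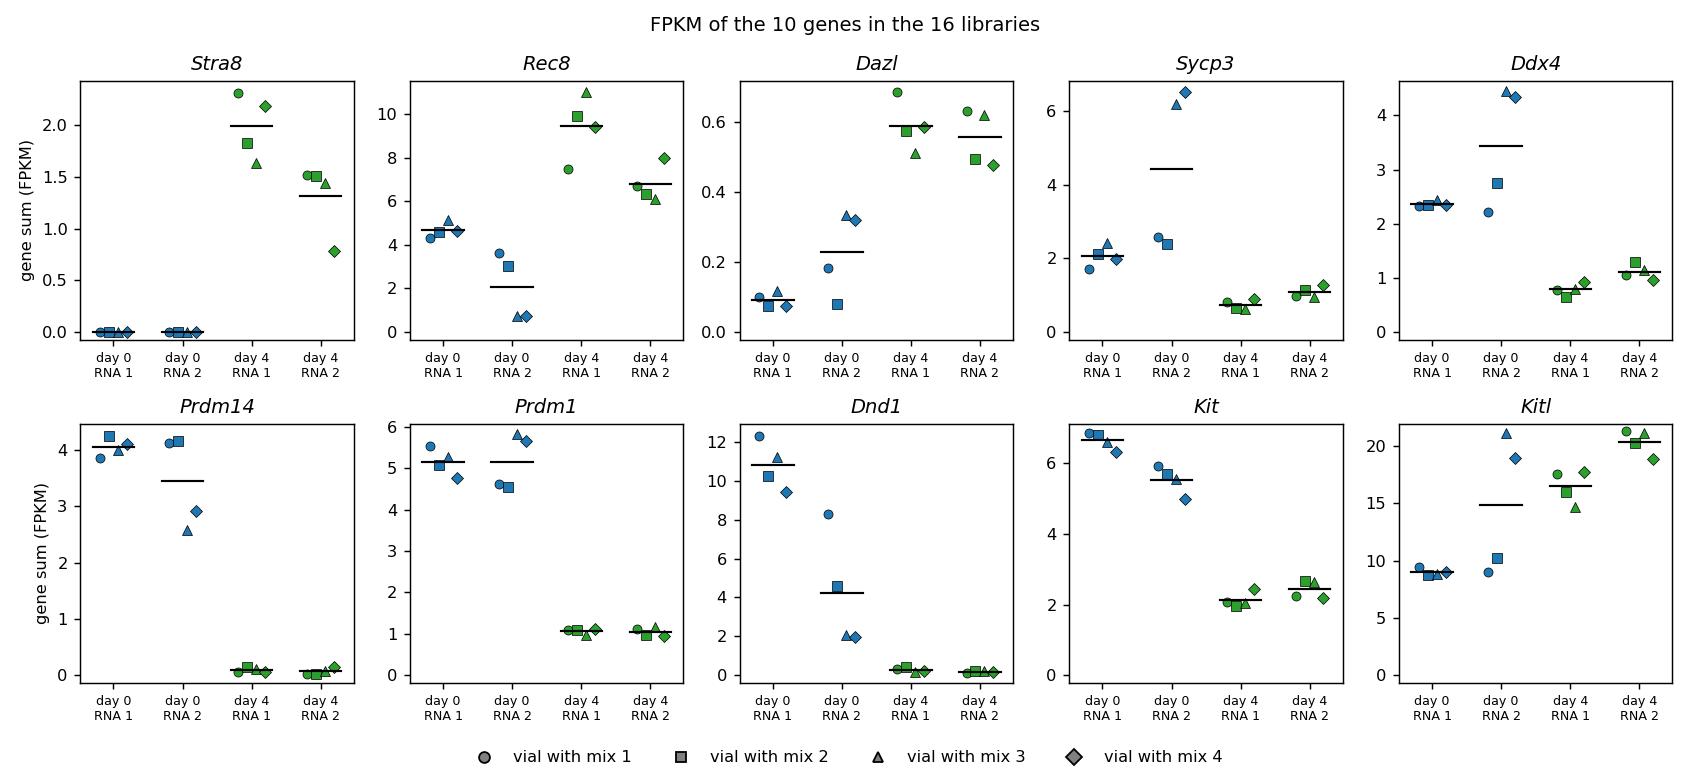
Level of each of the 10 genes in FPKM (vertical axis, a scale of its own in each panel) in the 4 vials of each RNA sample, with day 0 in blue and day 4 in green, the marker shape giving the spike-in mix and the line the mean of the 4 vials. Stra8 is at 0 in every day 0 library and between 0.785 and 2.31 FPKM at day 4, and in day 0 RNA sample 2 the vials of mixes 3 and 4 lie apart from the other vials of that RNA for Rec8, Dnd1, Sycp3, Kitl, Dazl and Ddx4, and by less for Prdm14 and Prdm1.

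In day 0 RNA sample 2 the vials with mixes 3 and 4 stood apart from the vials of the same RNA with mixes 1 and 2, along the GC content of the transcript. The difference between these vials, on the log2 scale, had a median of 0.97 over the 573 genes lowest in GC and of -2.52 over the 573 highest, among genes of at least 1 FPKM. In day 0 RNA sample 1 the same contrast of vials ran only from -0.01 to -0.14. The change from day 0 to day 4 followed GC content as well, from a median of 0.69 at the lowest GC to -1.72 at the highest, and from 0.97 to -2.1 without those 2 vials. Values without them, and after a correction of each library for GC content, are therefore given below beside each of the 10 genes. Most other genes named below are given with all vials only. Biological differences between the days that run along GC content are removed by the GC correction too. Without the 2 vials all 10 genes were called, with 60.6% of all genes called. After GC correction 9 of 10 were called, all but Kitl, with 51.9% of all genes, and with the number of the RNA sample as a block all 10 were called, with 51.6% of all genes.

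**Figure D2:**
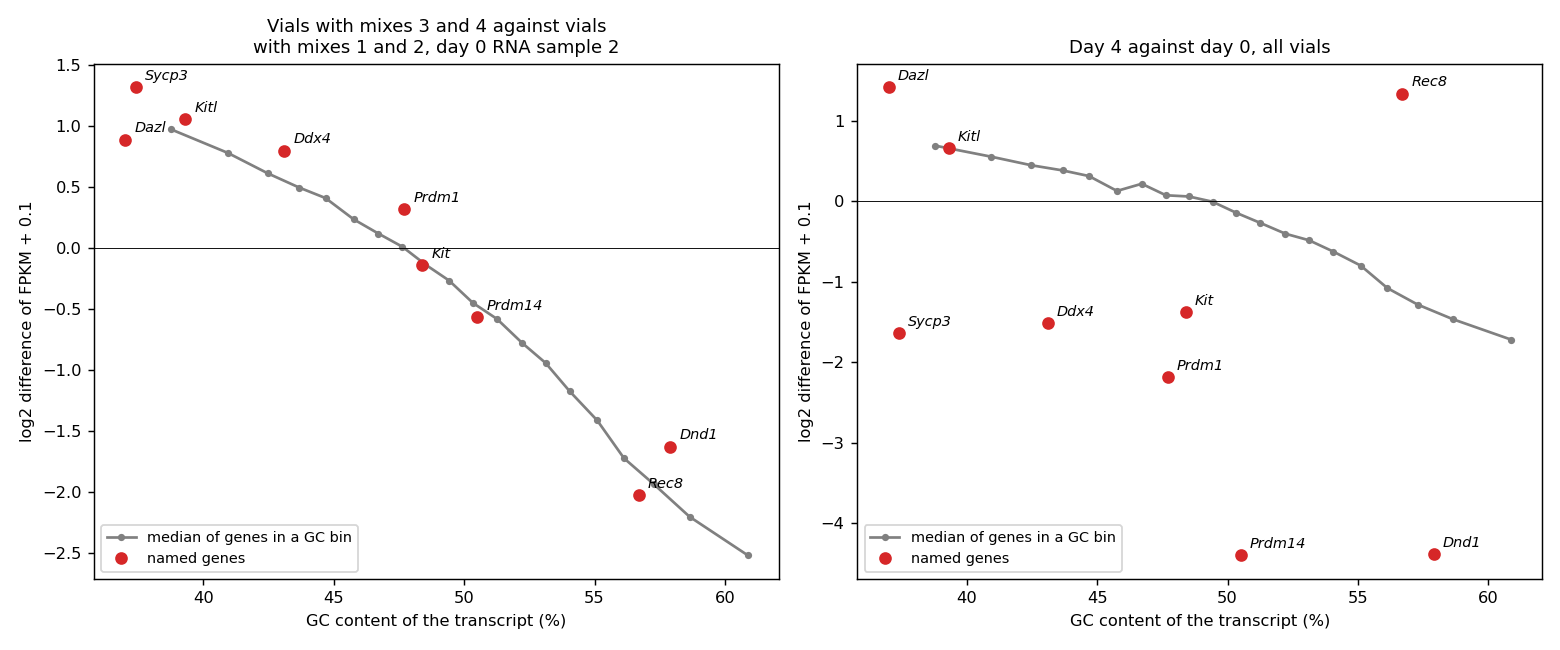
GC content of the transcript (horizontal axis, percent) against the log2 difference between the vials of mixes 3 and 4 and those of mixes 1 and 2 in day 0 RNA sample 2 (left) and against the log2 change from day 0 to day 4 (right), with the named genes in red and medians of 20 GC bins as the grey line. The named genes lie close to the line on the left, and on the right only Kitl does (0.66 against a median of 0.69). Stra8, at 0 at day 0, is left out.

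Among the genes of meiosis, Stra8 was detected at day 4 only. This gene (NM_009292) lies on chromosome 6 of GRCm38 from 34920163 to 34939344 and encodes the RA-induced factor that licenses germ cells to begin meiosis. Its level was listed at 0 in all 8 libraries of day 0. At day 4 it was 2.31, 1.83, 1.64 and 2.19 FPKM in the vials of RNA sample 1 and 1.52, 1.51, 1.44 and 0.785 FPKM in those of RNA sample 2. Every day 4 library was therefore above every day 0 library, and 7 of the 8 day 4 libraries lay above 1 FPKM. The mean at day 4 was 1.65 ± 0.48 FPKM (SD, n = 2), and the change was called (adjusted p = 0.00532). No fold is given, since the level at day 0 is listed at 0. The call was kept without the 2 vials that stood apart (adjusted p = 0.00165) and after GC correction (adjusted p = 0.000931).

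Rec8, which encodes the cohesin subunit that holds sister chromatids together in meiosis, was higher at day 4 in every library but did not pass the test with all vials. It (NM_020002) lies on chromosome 14 from 55618002 to 55625395. The 4 vials of day 0 RNA sample 1 gave 4.33, 4.61, 5.15 and 4.65 FPKM, and those of RNA sample 2 gave 3.65, 3.05, 0.747 and 0.745 FPKM. At day 4 the libraries ranged from 6.11 to 11 FPKM (median 7.73). The low values of day 0 came from the vials of mixes 3 and 4 of RNA sample 2, and Rec8 is rich in GC (56.7%). The difference between these vials and those of mixes 1 and 2 was -2.03 for Rec8 and -1.94 for the median gene of its GC content. The change between the days was 1.34 (SE 0.48, adjusted p = 0.108) with all vials and 1.00 (SE 0.26, adjusted p = 0.0372) without the 2 vials. Genes of its GC content had a median change of -1.28, and after GC correction Rec8 rose by 2.61 (SE 0.09, adjusted p = 0.000647). With the replicate block its adjusted p was 0.00297.

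Sycp3 was lower at day 4 in every library, and it too did not pass the test with all vials. It (NM_011517, chromosome 10 from 88459587 to 88473236) encodes a structural protein of the axial element, the core along which meiotic chromosomes fold. At day 0 it was 1.72, 2.13, 2.42 and 1.99 FPKM in RNA sample 1 and 2.58, 2.39, 6.20 and 6.53 FPKM in RNA sample 2, and at day 4 it ranged from 0.634 to 1.27 FPKM (median 0.924). No day 4 library reached the lowest library of day 0. Its GC content is low (37.4%), and the vials of mixes 3 and 4 differed from the others by 1.32 for Sycp3 and by 0.97 for the median gene of its GC content. The change was -1.64 (SE 0.47, adjusted p = 0.0714) with all vials, -1.24 (SE 0.24, adjusted p = 0.0175) without the 2 vials and -2.26 (SE 0.19, adjusted p = 0.00229) after GC correction, and with the replicate block the adjusted p was 0.00231. After GC correction or with the block, Sycp3 and Rec8 thus moved in opposite directions, although both encode proteins of the meiotic chromosome axis.

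Dazl, Ddx4 and Dnd1 encode RNA-binding proteins of germ cells, and they did not move together. Dazl, a translational regulator that makes PGCs competent for meiosis, lies on chromosome 17 from 50279393 to 50293620 and has 2 RefSeq rows. It was the lowest of the genes detected at day 0, with 0.101, 0.075, 0.118 and 0.074 FPKM in RNA sample 1 and 0.182, 0.079, 0.334 and 0.319 FPKM in RNA sample 2. The day 4 libraries ranged from 0.476 to 0.686 FPKM (median 0.580). The groups did not overlap, but no library reached 1 FPKM. Dazl rose by 1.42 (SE 0.33, adjusted p = 0.0460), which is next to the threshold, by 1.68 (SE 0.15, adjusted p = 0.00313) without the 2 vials and by 0.95 (SE 0.19, adjusted p = 0.0205) after GC correction. Its GC content (37.0%) is among the lowest, where the median gene changed by 0.69. Without day 0 RNA sample 1 the change was 1.03 (SE 0.15, adjusted p = 0.0602) and was not called.

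Ddx4, the mouse vasa gene and a helicase of germ cell granules, was measurable before RA and lower after it. It lies on chromosome 13 from 112598333 to 112652633. At day 0 it was 2.33, 2.35, 2.44 and 2.35 FPKM in RNA sample 1 and 2.21, 2.75, 4.44 and 4.34 FPKM in RNA sample 2, against a range of 0.642 to 1.29 FPKM and a median of 0.941 at day 4. The vials of mixes 3 and 4 of RNA sample 2 were again high (4.39 FPKM on average, against 2.48 in mixes 1 and 2). Ddx4 fell, with a change of -1.51 (SE 0.33, adjusted p = 0.0412) with all vials, of -1.28 (SE 0.21, adjusted p = 0.0113) without the 2 vials and of -1.94 (SE 0.16, adjusted p = 0.00213) after GC correction. The call was lost without day 0 RNA sample 1 (adjusted p = 0.0719) and without day 0 RNA sample 2 (adjusted p = 0.0839). Its E-box and E2F motif are shown above.

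Dnd1 encodes a partner of the Nanos proteins and of the deadenylase complex, and its loss removes PGCs. It (NM_173383) fell to below 1 FPKM in every day 4 library. In the vials of day 0 RNA sample 1 it was 12.3, 10.3, 11.2 and 9.40 FPKM, and in those of RNA sample 2 it was 8.27, 4.58, 2.08 and 1.95 FPKM. At day 4 its range was 0.126 to 0.422 FPKM (median 0.214). Dnd1 has the highest GC content of the 10 genes (57.9%), and the spread at day 0 ran with the vials as for Rec8 (-1.63 for Dnd1 against a median of -1.94 for genes of its GC content). The change was -4.38 (SE 0.56, adjusted p = 0.0146) with all vials, -4.68 (SE 0.35, adjusted p = 0.00228) without the 2 vials and -3.28 (SE 0.15, adjusted p = 0.000857) after GC correction, while the median gene of its GC content changed by -1.28.

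The transcription factors that set aside PGCs both fell. Prdm14, a PR domain protein that also guards the naive pluripotent state of ES cells, lies on chromosome 1 from 13113428 to 13127163 (NM_001081209). It was 3.85, 4.25, 3.99 and 4.11 FPKM in day 0 RNA sample 1 and 4.12, 4.17, 2.58 and 2.92 FPKM in RNA sample 2. At day 4 no library was above 0.153 FPKM and the median was 0.0705. Day 0 exceeded day 4 by a ratio of the means of 45.3. The log2 change, which understates this ratio because 0.1 is added to each level, was -4.40 (SE 0.25, adjusted p = 0.00471) with all vials, -4.53 (SE 0.16, adjusted p = 0.00121) without the 2 vials and -4.32 (SE 0.15, adjusted p = 0.000647) after GC correction.

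Prdm1 encodes Blimp1, a repressor of the somatic program in PGCs that also acts in endoderm and in B cells. It (NM_007548) lies on chromosome 10 from 44437174 to 44528558. Of the 10 genes it varied least between RNA samples, with means of 5.16 and 5.16 FPKM at day 0 and of 1.07 and 1.05 FPKM at day 4. The libraries ranged from 4.54 to 5.82 FPKM at day 0 and from 0.953 to 1.16 FPKM at day 4. The change of Prdm1 was -2.18 (SE 0.21, adjusted p = 0.00894) with all vials, -2.1 (SE 0.13, adjusted p = 0.00183) without the 2 vials and -2.23 (SE 0.10, adjusted p = 0.000830) after GC correction.

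Kit, the receptor tyrosine kinase of PGCs, melanoblasts and blood progenitors, fell, whereas its ligand Kitl did not pass the test with all vials. Kit lies on chromosome 5 from 75574987 to 75656722. It was 6.86, 6.81, 6.61 and 6.32 FPKM in the vials of day 0 RNA sample 1 and 5.93, 5.69, 5.57 and 4.98 FPKM in those of RNA sample 2. At day 4 its range was 1.97 to 2.66 FPKM (median 2.22), so that Kit was kept at a lower level and not lost. Its GC content (48.4%) is in the middle of the range, and the vials of mixes 3 and 4 differed little from the others (-0.14). The change of Kit was -1.38 (SE 0.22, adjusted p = 0.0224) with all vials, -1.41 (SE 0.14, adjusted p = 0.00376) without the 2 vials and -1.44 (SE 0.13, adjusted p = 0.00250) after GC correction. Without day 0 RNA sample 1 it was -1.25 (SE 0.16, adjusted p = 0.0555) and was not called.

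Kitl, the stem cell factor that Kit binds, was the only gene of the 10 whose libraries overlapped between the days. It (NM_013598) lies on chromosome 10 from 100015615 to 100100416. At day 0 it was 9.43, 8.73, 8.79 and 8.99 FPKM in RNA sample 1 and 8.97, 10.2, 21.1 and 18.9 FPKM in RNA sample 2. The day 4 libraries ranged from 14.7 to 21.3 FPKM (median 18.3), and the overlap came from the vials of mixes 3 and 4 of day 0 RNA sample 2. The change was 0.66 (SE 0.31, adjusted p = 0.179) with all vials and 0.97 (SE 0.14, adjusted p = 0.00769) without the 2 vials. Kitl is low in GC (39.3%), and genes of its GC content had a median change of 0.69, or 0.97 without the 2 vials. After GC correction the change of Kitl was -0.03 (SE 0.07, adjusted p = 0.768), and with the replicate block, which keeps the change of 0.66, the adjusted p was 0.0301.

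**Figure D3:**
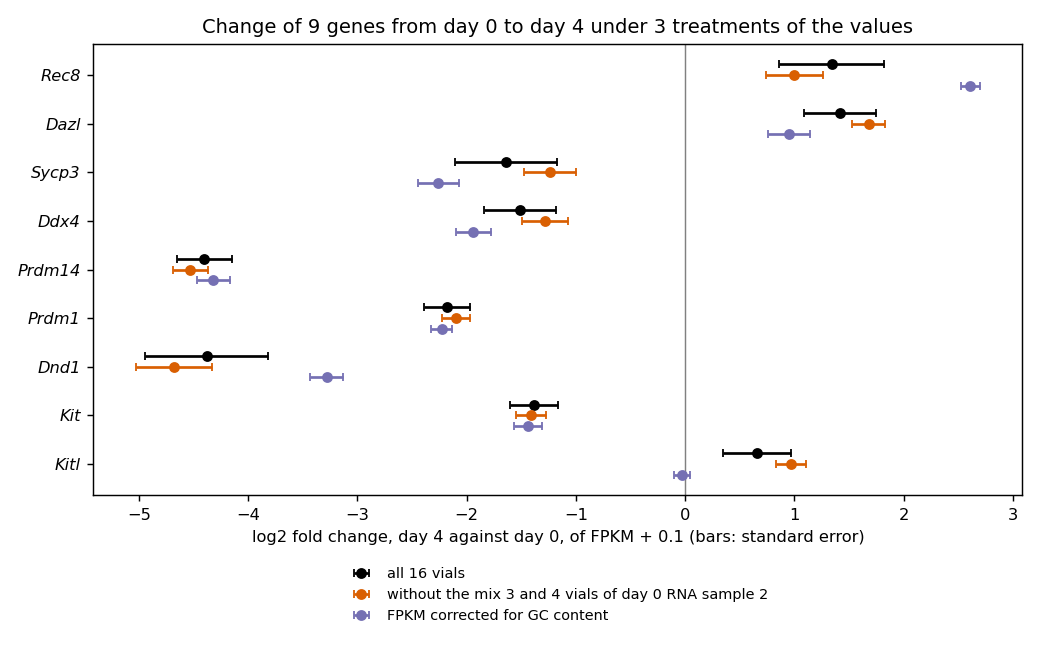
Change from day 0 to day 4 of 9 of the genes on the log2 scale (horizontal axis, points with standard errors as bars) with all 16 vials in black, without the 2 vials that stood apart in orange, and after GC correction in purple. Each of the genes other than Kitl keeps its side of 0 in all 3 treatments, and Kitl runs from 0.97 to -0.03. Stra8, at 0 at day 0, is left out.

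The RefSeq rows show how far single isoforms can be read. Dazl, Ddx4 and Kit have 2 rows each, between which RSEM, the quantification tool of the study, divided the reads. The sum of the Kit rows was stable over the vials of one RNA (coefficient of variation 3.68% to 10.4%), whereas the division was not. In day 4 RNA sample 1 the row NM_001122733 held 93.9%, 54.6%, 0% and 13.7% of the Kit level in the vials of mixes 1 to 4. These vials hold the same RNA, so this range is technical. The paper names the mix 1 vial of this RNA sample as an outlier in its share of ribosomal RNA reads. For Dazl, NM_001277863 held 100%, 0%, 72.3% and 100% of the level in the vials of day 4 RNA sample 2, while the sum varied by 14.7%. Ddx4 was placed on NM_001145885 in all libraries but 1, the mix 4 vial of day 4 RNA sample 2, where that row held 85.3%.

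Tested as single rows, 4 of the 13 rows were called, those of Stra8, Prdm14, Prdm1 and Dnd1, against 18.9% of the 28213 rows tested. The Kit rows NM_021099 (-1.36, SE 0.36, adjusted p = 0.0762) and NM_001122733 (-1.58, SE 0.61, adjusted p = 0.147) each missed the threshold that the sum passed. The same was true of Dazl NM_010021 (1.52, SE 0.32, adjusted p = 0.0524) and NM_001277863 (0.81, SE 0.42, adjusted p = 0.232). Ddx4 NM_001145885 (-1.53, SE 0.35, adjusted p = 0.0600) missed it too, although it held the whole Ddx4 level in all libraries but 1. The sum of Ddx4 changed by -1.51. Rows and sums were tested in separate fits, of 28213 rows and of 20542 genes, so a lost call alone does not show a division of reads.

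**Figure D4:**
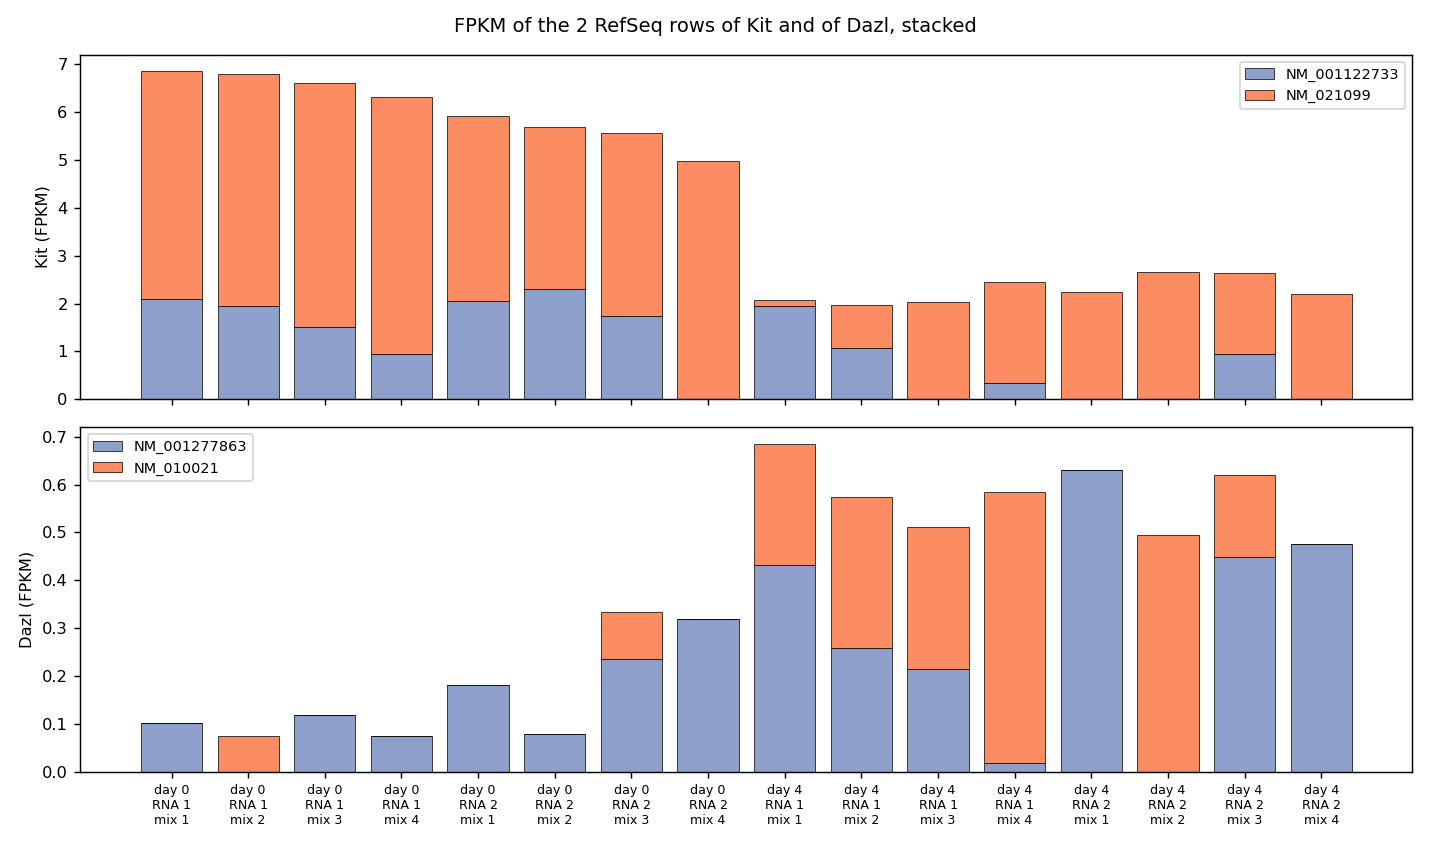
Level in FPKM (vertical axis) of the 2 RefSeq rows of Kit (top) and of Dazl (bottom), stacked, in each of the 16 libraries along the horizontal axis. The height of a bar is stable over the vials of an RNA sample for Kit, between 1.97 and 2.66 FPKM at day 4, while the division between the colours changes from vial to vial.

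The other genes of the germ line program were read from lists. Their counts stand against 16% of all genes called higher and 14.5% called lower with all vials. Of 14 PGC genes, 8 were called lower and 0 higher, with a median change of -2.09. Lin28a, which blocks maturation of let-7 miRNAs, fell from 143.2 to 1.32 FPKM, a log2 change of -6.67 (SE 0.17, adjusted p = 0.00462). Sall4, a zinc finger factor of ES cells and PGCs, fell from 47.2 to 0.794 FPKM (-5.73, SE 0.19, adjusted p = 0.00462). Alpl, the alkaline phosphatase used to stain PGCs, fell from 25.1 to 1.22 FPKM (-4.20, SE 0.39, adjusted p = 0.00844). Each of the 3 is also expressed in pluripotent ES cells, so this list cannot be read for PGCs alone.

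Most other genes of meiosis were low on both days. Of 12 genes of the meiotic chromosome axis, synapsis and cohesin, 3 reached a mean of 1 FPKM, 1 was called higher and 3 lower, and the median change was -0.14. Smc1b, the meiotic partner of Rec8 in cohesin, rose from 0.120 to 0.282 FPKM (0.81, SE 0.19, adjusted p = 0.0466), and was also called without the 2 vials (adjusted p = 0.00334) and with the block (adjusted p = 0.0127), but not after GC correction (0.38). The list had 3 genes higher and 4 lower without the 2 vials, 2 and 3 with the block, and 0 and 4 after GC correction. In these fits 60.6%, 51.6% and 51.9% of all genes were called. Rad21l, another meiotic cohesin subunit, fell from 0.142 to 0.0191 FPKM (-1.01, SE 0.16, adjusted p = 0.0209). Syce3, of the central element of the synaptonemal complex, averaged 0.113 FPKM at day 0, close to the 0.1 added to each level. It was at 0 in all 8 day 4 libraries (adjusted p = 0.00532). Its day 0 libraries ranged from 0 to 0.256 FPKM, so the libraries of the days overlapped. Among 18 genes of meiotic recombination and entry, 3 were called higher and 2 lower, with a median change of 0.36. Without the 2 vials 10 were called higher and 2 lower, with the block 7 and 2, and after GC correction 7 and 5. These fits called 60.6%, 51.6% and 51.9% of all genes. Hfm1, a meiotic helicase, rose from 0.475 to 1.76 FPKM (1.72, SE 0.30, adjusted p = 0.0261) and Meiob, a meiotic single-strand DNA-binding protein, from 0.123 to 0.583 FPKM (1.62, SE 0.27, adjusted p = 0.0245). After GC correction the changes of Hfm1 and Meiob were smaller, at 1.09 and 1.27. Spo11, which makes the DNA breaks of meiosis, went the other way, from 1.15 to 0.0560 FPKM (-3.01, SE 0.20, adjusted p = 0.00532). Stra8 and Spo11 thus moved in opposite directions.

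Of 15 genes of the germ line RNA and piRNA pathway, 1 was called higher and 4 lower, with a median of -0.14. Without the 2 vials 3 were higher and 7 lower, where 60.6% of all genes were called. Tdrd5, a Tudor protein of germ granules, fell from 6.05 to 0.524 FPKM (-3.32, SE 0.26, adjusted p = 0.00665) and Tdrd1 from 0.618 to 0.245 FPKM (-1.06, SE 0.19, adjusted p = 0.0294). Asz1, a piRNA factor at mitochondria, rose but was low on both days, at 0.00600 and 0.152 FPKM (1.23, SE 0.20, adjusted p = 0.0238).

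The repressors and partners named in the background were measured as well. Of 15 genes of PRC1.6 and MAX-MGA, 2 were called higher and 4 lower, with a median of -0.31. Without the 2 vials 5 were higher and 6 lower, where 60.6% of all genes were called. L3mbtl2, a subunit that compacts chromatin, fell from 26.2 to 4.04 FPKM (-2.59, SE 0.47, adjusted p = 0.0293), although its day 0 libraries ranged from 5.55 to 37.0 FPKM. Rnf2, the ubiquitin ligase of the complex, rose from 64.1 to 166.4 FPKM (1.41, SE 0.28, adjusted p = 0.0342), as did the deacetylase Hdac2, from 133.1 to 295.8 FPKM (1.19, SE 0.28, adjusted p = 0.0488). After GC correction these changes were -1.74, 0.85 and 0.86.

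Among 11 genes of proteins that work with PRDM14 or set DNA methylation, 4 were called lower and 2 higher, with a median of -1.07. Dnmt3l, the cofactor of de novo methylation, fell from 3.61 to 0.0336 FPKM (-4.74, SE 0.36, adjusted p = 0.00634) and the methyltransferase Dnmt3b from 35.4 to 2.02 FPKM (-4.06, SE 0.20, adjusted p = 0.00462). Tet2, which oxidises methylated cytosine, rose from 1.33 to 5.91 FPKM (2.07, SE 0.20, adjusted p = 0.00916). The methylation of the germ line promoters was not measured in these libraries.

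Of 11 genes downstream of Kit, 2 were called higher and 1 lower, with a median of -0.13. Without the 2 vials 4 were higher and 5 lower, where 60.6% of all genes were called. Ptpn6, the phosphatase that dampens Kit, fell with it, from 8.55 to 0.582 FPKM (-3.57, SE 0.47, adjusted p = 0.0152). Pik3r1, the regulatory subunit of PI3-kinase, rose from 7.36 to 21 FPKM (1.5, SE 0.17, adjusted p = 0.0122), and Mitf, the melanocyte factor downstream of Kit, from 0.539 to 1.31 FPKM (1.15, SE 0.28, adjusted p = 0.0497).

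Genes known to respond to RA were measured as a check of the day 4 libraries. Of 9 RA response genes 5 were called higher and 1 lower, with a median change of 2.73. Rarb, an RA receptor induced by its own ligand, rose from 0.195 to 107.0 FPKM (8.50, SE 0.17, adjusted p = 0.00462). Dhrs3, which reduces retinal, rose from 0.788 to 91.3 FPKM (6.72, SE 0.32, adjusted p = 0.00462) and the RA-degrading enzyme Cyp26b1 from 0.323 to 19.5 FPKM (5.59, SE 0.34, adjusted p = 0.00475). Cyp26a1, the other enzyme of this kind, was already at 50.7 FPKM at day 0 and fell to 8.88 FPKM (-2.5, SE 0.15, adjusted p = 0.00474). Among these genes the level of Stra8 at day 4 (1.65 FPKM) was far below that of Rarb or Dhrs3.

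**Figure D5:**
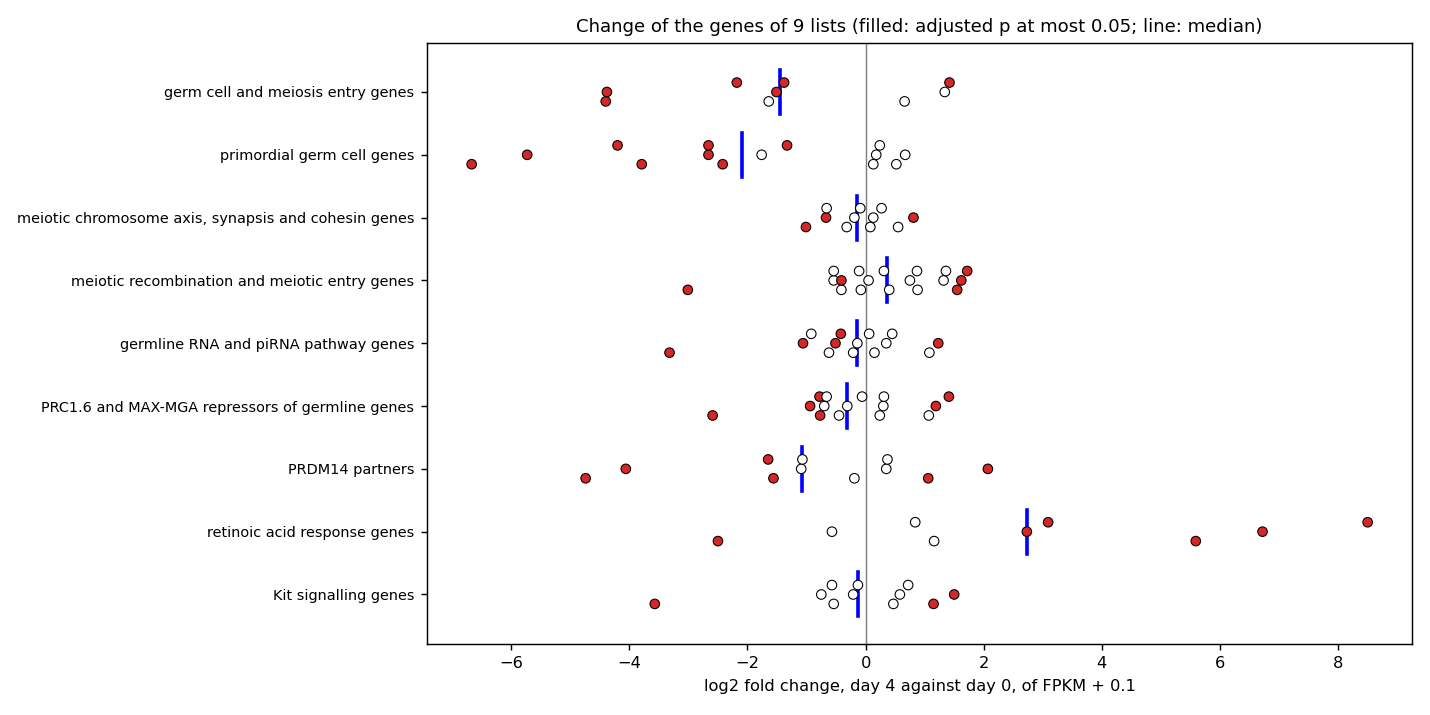
Change from day 0 to day 4 on the log2 scale (horizontal axis) of the genes of 9 lists, 1 point a gene, filled where the adjusted p is at most 0.05, with the median of each list as a blue line. The 10 germ cell and meiosis entry genes have a median of -1.44, the PGC genes of -2.09 and the RA response genes of 2.73, while the lists of meiosis and piRNA genes lie around 0. Stra8, Syce3 and Nanos2, at 0 on 1 of the days, are not drawn but count in the medians.

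The cells behind these values were mixed, and fewer cells of a type and less RNA per cell cannot be told apart in whole EBs. The EBs were made from ES cells, and the pluripotent cell markers fell. Of 8 markers 6 were called lower and 0 higher, their summed level went from 96.7 to 166.8 FPKM in the day 0 libraries down to 6.25 to 8.74 FPKM at day 4, and Pou5f1, the core pluripotency factor, fell from 62.2 to 0.864 FPKM (-5.91, SE 0.50, adjusted p = 0.00737). Prdm14, Dnd1, Lin28a and Sall4 moved in the same direction as these markers, and the part of this loss in their change was not tested.

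Endoderm markers rose in the same libraries, with 6 of 10 called higher and 0 lower and a summed level of 14.2 to 18 FPKM at day 0 and of 76.8 to 80.4 FPKM at day 4. Most of it was Gata6, which rose from 6.36 to 54.4 FPKM (3.08, SE 0.14, adjusted p = 0.00462). Of 10 blood and endothelial markers 4 were called lower and 1 higher (152.6 to 191.8 FPKM in sum at day 0, 106.1 to 142.5 at day 4). The blood progenitor factors Tal1, from 20.5 to 2.06 FPKM (-3.25, SE 0.17, adjusted p = 0.00462), and Lmo2, from 59.1 to 7.78 FPKM (-2.91, SE 0.14, adjusted p = 0.00462), fell, as did Kit, while the embryonic globin Hba-x rose from 0.217 to 9.40 FPKM (4.85, SE 0.38, adjusted p = 0.00665). Of 8 neural crest and melanocyte markers 5 were called lower and 1 higher (31.7 to 36.4 FPKM in sum at day 0, 24.5 to 26.9 at day 4). Of 9 neural markers 3 were called higher and 2 lower (24.0 to 44.7 FPKM in sum at day 0, 24 to 28 at day 4). The part of these cell types in the changes of Kit, Kitl and Prdm1 was not tested.

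Markers of later germ cells and of gonadal somatic cells were mostly low. Of 13 such genes, Prm2 and Acrv1 were listed at 0 in all 16 libraries, 2 had a mean of at least 1 FPKM on some day, 1 of the 11 tested was called higher and 2 lower, and the sum of the list was 4.12 to 8.54 FPKM at day 0 and 6.58 to 8.08 FPKM at day 4. Zbtb16, a factor of spermatogonial stem cells, fell from 0.691 to 0.0510 FPKM (-2.35, SE 0.30, adjusted p = 0.0143), and Sox9, which Sertoli cells share with cartilage and neural crest, rose from 0.776 to 2.47 FPKM (1.55, SE 0.24, adjusted p = 0.0215). Germ cells past the PGC stage are thus not shown by these markers, and germ cell is used here for a known role of the 10 genes and not for a cell type found in the EBs.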

How the data were processed

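Total RNA of EBs at day 0 and day 4 was sequenced as 16 libraries. The authors mapped paired-end reads to mm10 RefSeq and spike-in transcripts with Bowtie2 2.1.0 and quantified them with RSEM 1.2.18; TopHat2 2.0.10 is also named in the submitters' processing notes. They deposited FPKM per transcript, each library scaled by its TMM factor (0.928 to 1.12). The labels and the study give the reads per library, but the table holds no reads per gene, so no counting interval is given; values step by 0.01 FPKM before scaling. The summed FPKM was 411090 to 622888 and 20555 to 22156 rows were above 0; 0 of 10 housekeeping genes were at 0 in any library. All columns were mapped by title (0 without a sample), and the vials of each RNA sample follow the study's sample table.

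After 49 spike-in rows were left out, 98.6% of rows had a symbol and 97.4% of genes a GC content from GENCODE vM21. FPKM were summed per gene and averaged over the 4 vials; genes at 0 everywhere were dropped. log2(FPKM + 0.1) was fitted with limma 3.58.1 (lmFit, eBayes with a trend; R 4.3.3, Python 3.11.15). In simulation over 20500 genes for this comparison, 31.3%, 95.5% and 100% of log2 changes of 1, 2 and 3 were recovered, with 3.82% false calls. Only 200 genes were changed there, all with a mean level above about 1 FPKM, and noise was drawn for each gene on its own. Errors shared along GC content and changes in genes of lower level were not simulated, so these rates do not cover them. The study repeated the procedure to give its 2 replicates, and RNA samples of the same number were taken to share a repeat. Their deviations correlated (r = 0.767 over 11600 genes). This value includes the shift along GC content in day 0 RNA sample 2, so it cannot show that the numbers pair the samples. The study's test between samples names no such term (its spike-in regression has a replicate term), and the block was run as an alternative. The GC correction divides each library by its median deviation in 20 GC bins and was added after seeing the data. The 10 genes and the lists were chosen with earlier results of these data known. By rule, all 10 genes are named, from each list at most the 3 called genes with the largest change, and Cyp26a1, Rarb and Pou5f1 as checks of the RA response; 1 further check gene is not reported here. Other list names (Nanos2, Prm2, Acrv1) were given after their values were seen. List genes without a row (Gm4969, Piwil4) were not tested.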

Additional observations from a re-analysis of the deposited data

How the results depend on the processing

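Over 24 other settings, the 10 genes gave 238 values, of which 178 kept direction and side of the threshold, 40 lost the call, 18 gained it and 2 reversed. Both reversals were Kitl, at -0.03 after GC correction without and with the replicate block. Of the list genes named, Pax6, a neural marker, turned to -0.17 when the single strongest RefSeq row was used. Prdm14 stayed called in 22 of 24 settings, Prdm1 and Dnd1 in 20 of 24, Stra8 in 20 of 23, Kit in 18 of 24, Ddx4 in 13 of 24 and Dazl in 13 of 23, and Sycp3, Rec8 and Kitl were called in 7, 7 and 4 of 24. With the replicate block all 10 genes were called, and Sycp3 (adjusted p = 0.00231), Rec8 (0.00297) and Kitl (0.0301) were the calls it added. The block raised the genes called lower from 2972 to 5980, and those called higher from 3281 to 4629.

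Of all genes, the number called higher went to 2092 among genes of at least 1 FPKM, 5555 without the mix 3 and mix 4 vials of day 0 RNA sample 2, 5147, 397 and 838 with the vials of mix 1, 3 or 4 alone, 5579 with GC correction and 6079 with GC correction and block. The number called lower went to 1641 with no filter, 6889 without those 2 vials, 7167, 5235, 80 and 283 with the vials of mix 1, 2, 3 or 4 alone, 4581 with all 16 libraries and the RNA sample as a random effect, 5087 with GC correction and 5767 with GC correction and block. Leaving out an RNA sample gave 0 to 3666 genes higher and 0 to 5549 lower. The 0 came without day 4 RNA sample 1 or 2 (limma, 3 samples, the lone sample assumed to vary like the other day), where 4941 and 4720 genes had an unadjusted p of at most 0.05, and where 0 of the 10 genes were called.

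Of the 10 genes, those called higher numbered 2, and 0 with a mean of at least 1 FPKM required (Stra8 and Dazl are then not tested) or with mix 4 alone, 1 with a pseudocount of 0.01, no filter, no trend, the mix 3 vials alone, a single RefSeq row or without the mix 1 vial of day 4 RNA sample 1, 4 without the 2 vials, with mix 1 alone or with the block, and 0 to 2 with an RNA sample left out. Those called lower numbered 5, 1 with the vials of mix 3 or mix 4 alone, and 0 to 4 with an RNA sample left out. Under quantile scaling and without the TMM factor the median change of all genes was 0.01 and 0.02, in place of -0.03. The reads behind each gene's value are not in the table. Levels close to the pseudocount of 0.1 FPKM (Prdm14 at day 4 and Dazl at day 0, at 0.0827 and 0.160 on average) have understated fold changes.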
